A study of Homo sapiens with 6 samples.

Results

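Human chromosome ends are maintained by a small set of proteins, and 10 of their genes were followed here: TERT, the shelterin genes TERF1, TERF2, TERF2IP, TINF2, ACD and POT1, the helicase gene RTEL1, and the chromatin remodelling pair ATRX and DAXX. They were chosen by symbol, each symbol gave 1 identifier in GENCODE 29, and all 10 were among the 56982 identifiers listed in both deposited tables. The data were gene expression values from poly(A) RNA of U2OS, a human osteosarcoma cell line, in 6 libraries. Of these, 3 were of wild-type (WT) cells and 3 of the line labelled G3C2, which is given as deficient in ZFP36L1 after CRISPR/Cas9 editing. ZFP36L1 attaches to AU-rich elements of mRNAs and brings in deadenylases. All cells were in log phase at 65 to 75% confluency with no other treatment, and each genotype had libraries labelled 1, b and c. The sources used here do not say whether G3C2 is a single clone or where the edit lies, so genotype and line cannot be told apart.

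Telomerase extends telomeres by copying the template in its RNA subunit with its reverse transcriptase, TERT. Shelterin coats the repeats: TRF1 and TRF2 (genes TERF1 and TERF2) bind double-stranded repeats, RAP1 (TERF2IP) rides on TRF2, TIN2 (TINF2) bridges TRF1 and TRF2, and TPP1 (ACD) with POT1 covers the single-stranded overhang and connects telomerase to the chromosome end. Some tumours keep telomeres without telomerase by recombination, the alternative lengthening of telomeres (ALT). U2OS is a standard ALT line, and loss of ATRX or DAXX, which together place histone H3.3 at telomeric repeats, is common in ALT tumours.

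The AU-rich core TATTTAT, a sequence this protein family is known to bind, is shown because it is the feature that ties a transcript to the edited gene. Searched on the transcript strand in the longest 3′ untranslated region of protein-coding transcripts, it was found in 2 of the 10 genes, ATRX and TERF1, with 1 match each. Among all 19128 genes searched, 31.1% held it. The ATRX match lies 3090 bases after the stop codon in a region of 3473 bases, and its window is chrX:77505247-77505269 on the minus strand of GRCh38, with the core in capitals.
ATRX: cagatcgaTATTTATgtgcccca
The match in TERF1 (1657 bases after the stop codon, in 1985) is named only. A match is a description of the sequence, and the region searched is not necessarily the one these cells use. No match was found in the remaining 8 genes, whose searched regions were between 115 (ACD) and 1767 (TERF2) bases long.

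Values are FPKM, which are per length, so genes can be set side by side within a library. The pair of libraries labelled 1 stands in a first table, and the pairs labelled b and c stand in a second. These tables were scaled separately, with summed FPKM of 705014 and 712633 in the first and between 235190 and 319282 in the second. Each genotype difference was therefore taken within a table, on FPKM as deposited. Within the second table the sums also differed, at 235190 for WT replicate c and 319282 for G3C2 replicate c. Small differences in pair c, and overlaps that include it, therefore depend on the scaling. In the second table the steps between low values returned whole reads for 97.3 to 97.4% of values, and library totals were 22610000 to 28980000 reads. In pair c the scaling did not follow these totals. FPKM were scaled by 25410000 reads in WT and 22560000 in G3C2, while the totals were 22610000 and 25840000. Ratios of FPKM (G3C2 over WT) in pair c are therefore higher than ratios of reads per library total. For the first table no depth is known. Of 9 osteoblast markers, 5 were at 1 FPKM or above in each library, among them RUNX2, COL1A1 and SPARC, and SP7 was at 0 in 5 libraries and at 0.0247 FPKM in WT replicate 1. Of 5 epithelial markers 3 or 4 were at or above 1 FPKM, and none of 4 haematopoietic, 2 endothelial or 2 melanocyte markers exceeded 1. Summed osteoblast markers spanned 357.6 to 964.8 FPKM in WT and 395.0 to 1873.4 in G3C2, and their part in any difference below was not tested. ZFP36L1 mRNA had 165.2, 57.1 and 127.5 FPKM in the WT libraries (1, b, c), and 238.1, 105.1 and 82.4 in G3C2. Within the bulk RNA, fewer cells expressing a gene and less RNA per cell cannot be told apart.

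TERT (ENSG00000164362, chromosome 5, 1253147 to 1295069, minus strand) was listed at 0 FPKM in all 6 libraries. A count of 0 reads in the second table allows a level of up to 0.022 FPKM in WT replicate b, 0.0257 in WT replicate c, 0.0246 in G3C2 replicate b and 0.0289 in G3C2 replicate c, taking 3 reads as the limit. These limits cover counting error only. No such limit can be given for the first table. The telomerase RNA gene TERC was also listed at 0 throughout, with limits of 0.187 to 0.246 FPKM in the second table. Its RNA carries no stable poly(A) tail, and the libraries were made from poly(A)-selected RNA.

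**Figure D1:**
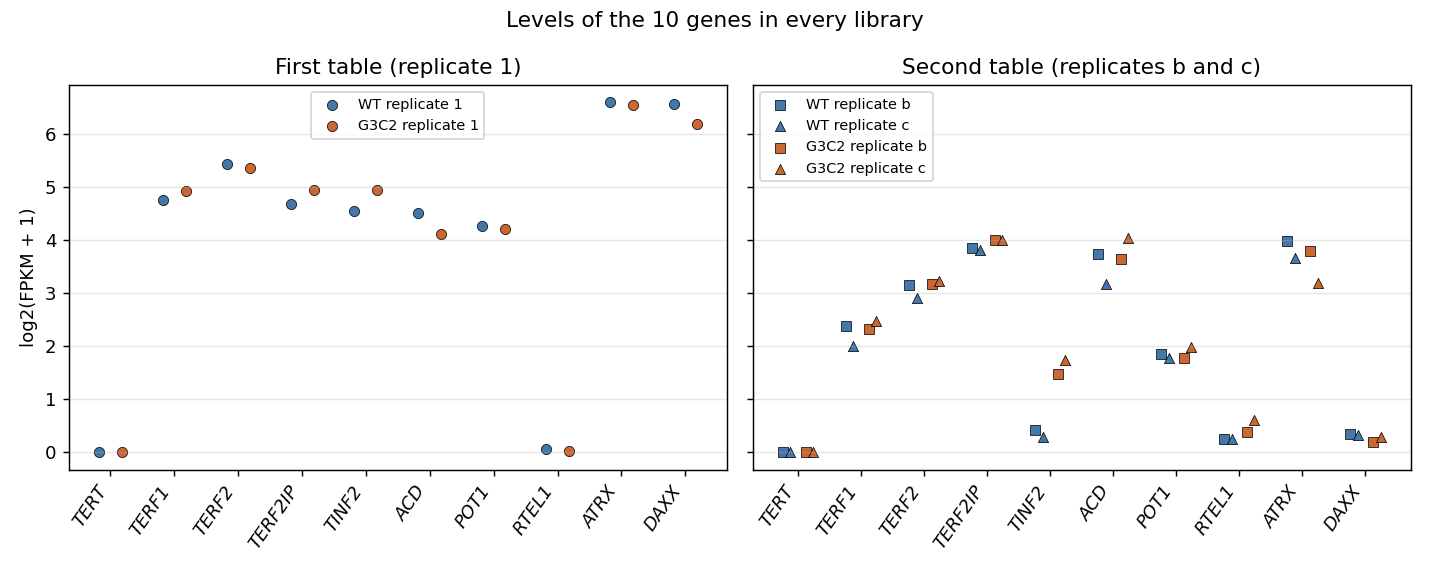
Levels of the 10 genes as log2(FPKM + 1), with replicate 1 in the left panel and replicates b and c in the right panel. Points are single libraries, blue for WT and orange for G3C2. DAXX and TINF2 are among the expressed genes on the left and near 0 on the right in WT, while TERT is at 0 in every library.

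The genes that bind double-stranded repeats were expressed in every library. TERF2 (ENSG00000132604, chromosome 16, 69355561 to 69408571) had 42.5, 7.91 and 6.46 FPKM in the WT libraries (1, b, c), and 40.1, 8.02 and 8.38 in G3C2. The G3C2 values lay below WT in the first table and just above both WT values in the second. The latter depends on the scaling of pair c. TERF1 (ENSG00000147601, chromosome 8, 73008864 to 73048122) had 26.0, 4.17 and 3.02 FPKM in WT and 29.3, 4.01 and 4.54 in G3C2, and the groups overlapped in the second table. TERF1 was the lower of the pair in all 6 libraries, at 0.468 to 0.612 times TERF2 in WT and 0.5 to 0.73 times in G3C2.

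TERF2IP (ENSG00000166848, chromosome 16, 75647786 to 75761872) had 24.7, 13.4 and 13.1 FPKM in WT and 29.7, 15.1 and 15.0 in G3C2. It was higher in G3C2 in 3 of 3 pairs, with log2 differences of 0.26, 0.16 and 0.19, and both G3C2 libraries of the second table lay above both WT libraries. In pair c it had 1122 reads in WT and 1147 in G3C2, of library totals of 22610000 and 25840000. The direction in that pair thus depends on the scaling. Most chromosomal neighbours of TERF2IP went the other way. Of 17 tested protein-coding genes within 5 Mb (up to 10 on each side), 13 were lower in G3C2 in all 3 pairs and 0 were higher, with median log2 differences of -0.50, -0.40 and -0.34 for replicates 1, b and c. Over all 12152 tested protein-coding genes, 2269 were lower and 2289 higher in all 3 pairs. Neighbours of other genes were uneven too. Higher and lower in all 3 pairs were 8 and 2 of 17 at TERF1, 0 and 7 of 17 at TERT, and 2 and 8 of 20 at ACD. At ATRX, DAXX, TERF2, POT1 and TINF2, at most 3 were higher and at most 4 lower. A 5.2% part of the TERF2IP exon sequence overlaps KARS, the gene of lysyl-tRNA synthetase, on the opposite strand. KARS had 286.0, 55.6 and 42.6 FPKM in WT and 165.5, 33.3 and 52.4 in G3C2. The sources used here do not say if counting used strand, and the part of KARS reads in the TERF2IP values was not tested.

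Both genes of the overhang-binding pair were lower in G3C2 in pairs 1 and b and higher in pair c. POT1 (ENSG00000128513, chromosome 7, 124822386 to 124929983) had 18.2, 2.59 and 2.43 FPKM in WT and 17.6, 2.42 and 2.95 in G3C2, with overlapping groups in the second table. The log2 differences of POT1 were -0.05, -0.07 and 0.21. ACD (ENSG00000102977, chromosome 16, 67657512 to 67660815) had 21.8, 12.3 and 7.97 FPKM in WT and 16.3, 11.5 and 15.4 in G3C2. Its log2 differences were -0.40, -0.08 and 0.87, so for ACD too replicate c alone was higher. Antisense overlaps covered 1.9% of the POT1 exons (POT1-AS1) and 1.8% of the ACD exons (CARMIL2). AC026464.3, which shares 1.7% of the TERF2 exon bases, was listed at 0 in all libraries.

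TINF2 was the gene with the widest difference between the genotypes. TINF2 (ENSG00000092330, chromosome 14, 24239643 to 24242674, minus strand) had 22.4, 0.336 and 0.218 FPKM in the WT libraries (1, b, c), and 29.8, 1.79 and 2.32 in G3C2. G3C2 was higher in 3 of 3 pairs, and the groups of the second table did not overlap. In the first table the log2 difference was 0.40, and in the second it was 1.06 for replicate b and 1.45 for replicate c. Those second-table values rest on 27 and 15 reads in WT and 129 and 142 in G3C2. As ratios of FPKM, G3C2 over WT was 5.35 (95% exact binomial interval 3.51 to 8.42) for replicate b and 10.7 (6.25 to 19.6) for replicate c. The intervals cover counting error only, and the size of the replicate c ratio also depends on the scaling of pair c.

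Over the 3 pairs the TINF2 log2 fold change was 0.97 (SE 0.22, n = 3 per genotype). It did not pass the threshold over all 15001 tested genes (limma adjusted p = 0.171). With a pseudocount of 0.1 it was 1.82, and with limma-voom, on reads of the second table alone, 2.81, neither past the threshold (adjusted p = 0.211 and 0.33). The genotype difference was larger in the second table than in the first by 0.86 on the log2 scale, and that difference between the tables did not pass either (limma interaction, adjusted p = 0.948). At gene level none of the annotated exons of TINF2 overlapped another listed gene.

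**Figure D2:**
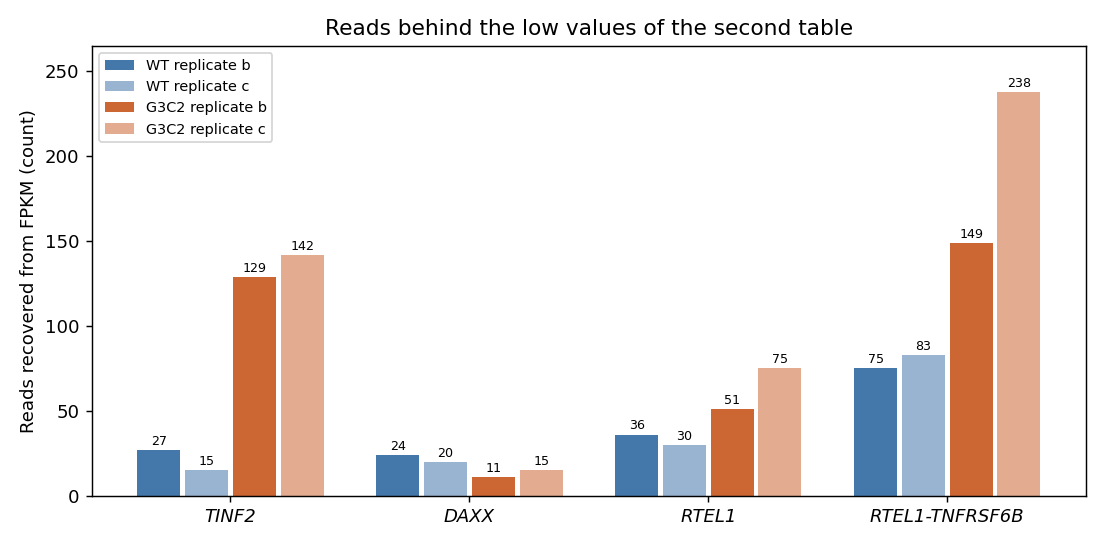
Reads recovered from the FPKM of the second table for the genes with low values, in WT (blue) and G3C2 (orange), replicates b (dark) and c (light). TINF2 has 15 to 27 reads in WT against 129 to 142 in G3C2, DAXX has 11 to 24 in all 4 libraries, and RTEL1 and RTEL1-TNFRSF6B have more reads in G3C2.

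RTEL1, the helicase that unwinds telomeric loops, was low throughout. RTEL1 (ENSG00000258366, chromosome 20, 63657810 to 63696253) had 0.0437, 0.188 and 0.183 FPKM in WT and 0.0183, 0.299 and 0.516 in G3C2, so the first table had G3C2 lower and the second had it higher without overlap. It stood on 36 and 30 reads in WT and 51 and 75 in G3C2 in the second table, and was below the filter on low values. Fitted without that filter, its log2 fold change was 0.15 (limma adjusted p = 1). With a pseudocount of 0.1 it was 0.44, and with limma-voom 1.0, neither past the threshold. As ratios of FPKM, G3C2 over WT was 1.59 (95% exact binomial interval 1.01 to 2.5) for replicate b and 2.82 (1.82 to 4.46) for replicate c. The intervals cover counting error only, and the replicate c ratio also depends on the scaling of pair c. An annotated readthrough gene, RTEL1-TNFRSF6B, shares 70.2% of the RTEL1 exon bases on the same strand. It had 0.197, 0.278 and 0.359 FPKM in WT and 0.13, 0.618 and 1.16 in G3C2, while TNFRSF6B was listed at 0 in every library. The treatment of reads in shared exons is not stated in those sources, so the level of RTEL1 is uncertain. Of 20 neighbouring genes on chromosome 20, 13 were higher in G3C2 in all 3 pairs and 0 lower, with medians of 0.38, 0.47 and 0.69. Among all 12152 tested protein-coding genes, 2289 were higher and 2269 lower in all 3 pairs.

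ATRX mRNA was present in both genotypes. ATRX (ENSG00000085224, chromosome X, 77504878 to 77786233, minus strand) had 95.8, 14.9 and 11.6 FPKM in WT and 92.0, 12.8 and 8.12 in G3C2. It was lower in G3C2 in 3 of 3 pairs, by log2 differences of -0.06, -0.21 and -0.46, although the groups overlapped in the second table. In the first table it was the highest of the 10 genes. A value for the whole gene does not show which exons the reads came from, and says nothing of the protein.

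DAXX was abundant in the first table and near 0 in the second. DAXX (ENSG00000204209, chromosome 6, 33318558 to 33323016, minus strand) had 93.8 FPKM in WT replicate 1 and 72.0 in G3C2 replicate 1. In the second table it had 0.262 (b) and 0.255 (c) in WT and 0.135 and 0.216 in G3C2, on 24, 20, 11 and 15 reads. As ratios of FPKM, G3C2 over WT was 0.513 (95% exact binomial interval 0.227 to 1.09) for replicate b and 0.845 (0.402 to 1.74) for replicate c, both intervals including equal levels. The mean of the first table was 382 times that of the second. For the other genes above the filter this ratio was 22.4 for TINF2 and between 1.61 (ACD) and 7.94 (ATRX). On the log2(FPKM + 1) scale, 0.4% of tested genes had a larger drop from the first table to the second than DAXX and 2.0% a larger drop than TINF2. The median shift was -1.02 over all tested genes and -2.47 over the 8 tested genes of the group.

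By the strictest definition, under 0.1 FPKM in every library of 1 table and at least 1 in every library of the other, 0 of the 10 genes were near 0 in a single table, beside 0.63% of the 56982 listed. With a limit of 0.5 FPKM, DAXX met it, beside 1.26% of all listed. TINF2 did not, since G3C2 exceeded 0.5 in both libraries of the second table. No gene of the group was near 0 in the first table alone. RTEL1 ran the opposite way to the others, its first-table mean being 0.105 times that of the second.

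Genes beside DAXX and TINF2 shared the drop. Of the 20 tested protein-coding neighbours of DAXX, 9 were under 0.5 FPKM in all libraries of the second table and at least 1 in both of the first, and the median shift was -4.10. ZBTB22, the gene next to DAXX, had 12.5 and 17.0 FPKM in the first table (WT, G3C2) and at most 0.0162 in the second. TAPBP, the gene beyond it, had 52.1 and 34.7 FPKM in the first table (WT, G3C2) and between 0.0671 and 0.101 in the second. Of the 20 neighbours of TINF2, 7 met the same definition, with a median shift of -2.16. Over all 12152 tested protein-coding genes, 418 met it. GMPR2, the adjacent gene, had 31.8 and 31.3 FPKM in WT and G3C2 replicate 1. Its second-table values were 0.185 and 0.724 in WT and 2.12 and 2.67 in G3C2, so there too both G3C2 libraries lay above both WT libraries. Among the neighbours of each of the other 8 genes, 0 met it. The genes beside DAXX and TINF2 were singled out after their values were seen. The cause of the drop was not tested, and the genotype differences of both genes in the second table rest on the few reads that remained.

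**Figure D3:**
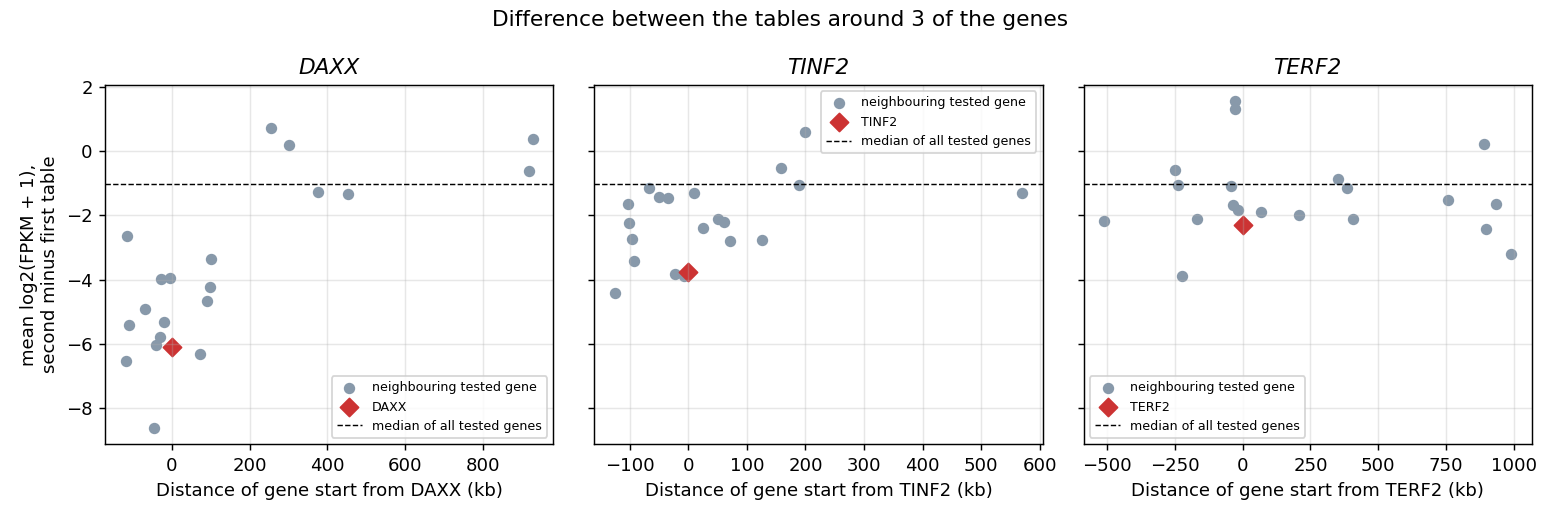
Mean log2(FPKM + 1) of the second table minus that of the first for DAXX, TINF2 and TERF2 (red diamonds) and up to 20 neighbouring tested protein-coding genes (grey), against the distance between gene starts in kb. The dashed line is the median of all tested genes, -1.02. Genes close to DAXX lie far below the line with it, TINF2 (-3.77) lies with GMPR2 and NEDD8, and TERF2 lies among its neighbours near -2. TGM1, at 9.5 kb from TINF2, lies at -1.31. It had 1.61 and 1.59 FPKM in the first table (WT, G3C2) and between 0.0303 and 0.0949 in the second. From so low a start, a much larger drop is not possible on this scale.

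The order of the levels differed between the tables. In the first, ATRX and DAXX stood highest and were not set apart from each other, followed by TERF2. TERF1, TERF2IP and TINF2 came next with no separation between neighbours, then ACD and POT1, also not separated. The step from TINF2 to ACD was small in WT replicate 1 (22.4 and 21.8 FPKM) and larger in G3C2 replicate 1 (29.8 and 16.3). RTEL1 and TERT were at the bottom. In the second table TERF2IP, ATRX and ACD were highest and overlapped, followed by TERF2, TERF1 and POT1, each set apart from the next. ATRX in G3C2 replicate c, at 8.12 FPKM, was however just below TERF2 in that library. TINF2, RTEL1 and DAXX overlapped below them, and TERT was last. Neighbours were called set apart where values divided by each library's median over the 10 genes did not overlap. TERF2IP was 0.581 and 0.74 times TERF2 in the first table and 1.7 to 2.02 times in the second, whereas the TERF1 to TERF2 ratio was between 0.468 and 0.73 in all libraries. The gene lengths behind the first table were not recovered, so a level is best compared within its own table.

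Across the group, no gene passed the genotype comparison. Of the 10, 8 passed the filter on low values (at least 1 FPKM in at least 2 libraries), DAXX through the first table alone, and TERT and RTEL1 did not. Of the 8, 0 had a limma adjusted p under 0.05, where 0.0467% of all tested genes did. At an unadjusted p under 0.05 there was 1, TINF2, beside 13.6% of all tested genes, and limma-voom, run on second-table reads, gave the same counts of 0 and 1. TERF2IP and TINF2 were higher in all 3 pairs (2 of 8, beside 17.8%), and ATRX and DAXX were lower in all 3 (2 of 8, beside 18.6%). In the second table, TERF2, TERF2IP and TINF2 had both G3C2 libraries above both WT libraries (3 of 8, beside 22.1%), and DAXX had both below (1 of 8, beside 17.9%). For TERF2 and TERF2IP this depends on the scaling of pair c. With 8 genes, these shares are too coarse to be called like or unlike those of all genes. The median log2 fold change was 0.11 for the group and 0.01 for all tested genes.

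**Figure D4:**
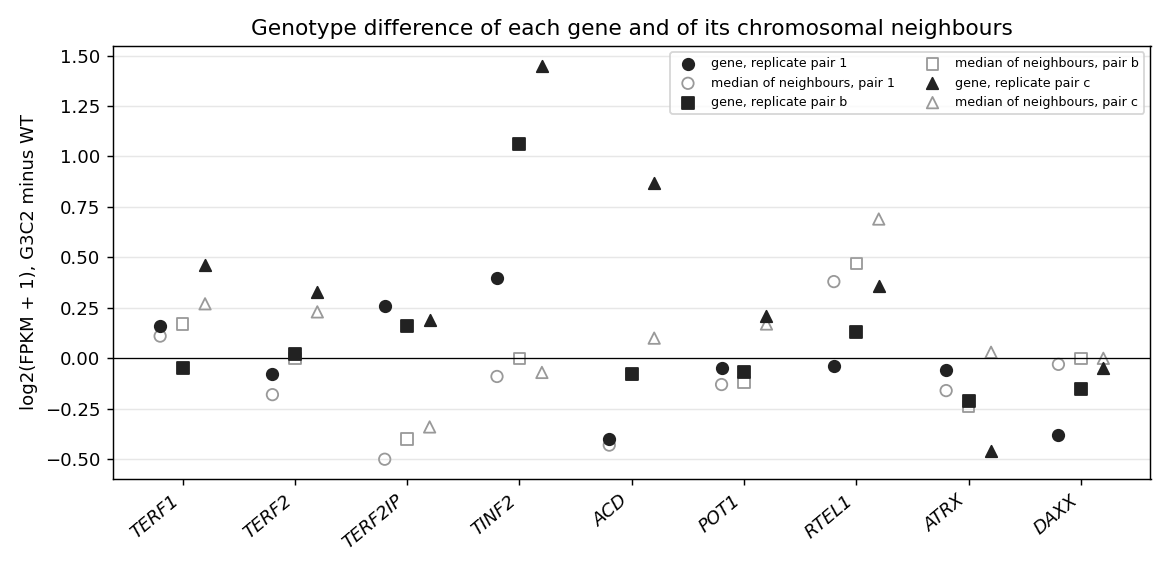
Difference of log2(FPKM + 1), G3C2 minus WT, for 9 of the genes (filled symbols) and the median of their chromosomal neighbours (open symbols), by replicate pair (circle 1, square b, triangle c); TERT, at 0 throughout, is left out. TINF2 lies above the median of its neighbours in all 3 pairs, and TERF2IP lies above 0 while the median of its neighbours lies below. RTEL1 lies below the median of its neighbours on this scale, which understates changes of low genes. As a ratio of FPKM, G3C2 over WT was 1.59 for RTEL1 in replicate b and 2.82 in replicate c, the latter dependent on the scaling of pair c.

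The remaining tested genes had smaller fitted log2 fold changes, none past the threshold. They were 0.20 (SE 0.13) for TERF2IP, 0.19 (SE 0.15) for TERF1, 0.13 (SE 0.25) for ACD, 0.09 (SE 0.15) for TERF2 and 0.03 (SE 0.14) for POT1. ATRX had -0.24 (SE 0.21), which ranged from -0.39 without G3C2 replicate b to -0.05 without G3C2 replicate c. DAXX had -0.19 (SE 0.14), which was -0.39 with a pseudocount of 0.1, -0.65 with limma-voom and -0.10 in the second table alone. Their limma adjusted p lay between 0.529 and 0.937. The errors show how far each estimate is uncertain, and these p-values do not show that the genotypes are alike. Without both libraries of replicate c, ACD turned to -0.24, TERF2 to -0.03 and POT1 to -0.06. The fold changes are on the log2(FPKM + 1) scale, which understates changes of low genes, and the p-values measure the spread between libraries, part of which may be technical.

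The 3 tested genes whose pattern was most like that of TINF2 were UBE2V1P2, C9orf3 and AL049840.4. Likeness was Pearson's r over the 6 libraries after subtracting each table's mean, and was 0.9983, 0.998 and 0.998. With 6 points and the table means removed, such values are a description of these libraries. The pseudogene UBE2V1P2 had 0.121, 11.3 and 10.3 FPKM in WT and 0.305, 17.7 and 19.1 in G3C2, so it was the first table that held its low values.

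Partner genes of the same pathway, in 5 lists with 117 genes of which 115 were tested, gave 0 limma calls at an adjusted p under 0.05 and 5 at an unadjusted p under 0.05, beside 13.6% of all tested genes. Of the 115, 13 were higher and 15 lower in all 3 pairs, shares of 11.3% and 13.0% beside 17.8% and 18.6% of all tested genes. The first list, telomerase RNA and the proteins that assemble and traffic it, had 19 tested members, of which 2 were higher and 2 lower in all 3 pairs, 10.5% each (median log2 fold change 0.05). DKC1, the pseudouridine synthase that stabilises telomerase RNA, had log2 differences of -0.34, -0.25 and 1.44 for replicates 1, b and c. NOP10, which sits in the same particle, had 0.15, 0.20 and 1.23.

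The list of the CST complex, end processing and lagging-strand synthesis had 13 tested members and a median of 0.23, with 2 higher (15.4%) and 1 lower (7.69%) in all 3 pairs, beside 17.8% and 18.6% of all tested genes. FEN1, the flap endonuclease, had a fitted value of 0.17 (SE 0.29) on the log2 scale, and the primase subunit PRIM2 of 0.26 (SE 0.30). Among 20 telomere-associated accessory genes (median -0.03), 2 were higher and 5 lower in all 3 pairs. The Ku subunits XRCC5 and XRCC6 had 0.12 (SE 0.25) and 0.36 (SE 0.29).

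H3.3 deposition and heterochromatin genes, the partners of ATRX and DAXX, had 20 tested members and a median of 0.09, with 4 higher and 2 lower in all 3 pairs, beside 17.8% and 18.6% of all tested genes. H3F3B, 1 of the genes that encode H3.3, had 0.40 (SE 0.19), and the heterochromatin protein gene CBX3 had 0.00 (SE 0.23). In the list of recombination and PML body genes linked to ALT, 43 were tested, 3 were higher (6.98%) and 5 lower (11.6%) in all 3 pairs, and the median was 0.07. The deubiquitinase USP7 had 0.08 (SE 0.17). In each of these 5 lists 0 members passed over all tested genes.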

How the data were processed

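Expression was measured in 6 poly(A) RNA libraries of U2OS cells, 3 per genotype, grouped by the sample titles. The authors deposited FPKM in 2 tables, per the file headers. CASAVA, HISAT2 and GRCh38.p12 come from the submitters' processing notes, with no versions. Strand and counting settings are not stated in these sources. Symbols, positions and exon lengths came from GENCODE 29 (GRCh38), to which 56868 of the 56982 shared identifiers matched. Where a symbol had 2 identifiers, as for PINX1, the 1 closest to the RefSeq gene was used.

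The comparison used log2(FPKM + 1) in limma 3.58.1 (R 4.3.3), with genotype and table as terms and a variance trend over mean level. Adjusted p-values follow Benjamini-Hochberg, with a threshold of 0.05. Genes in both tables with at least 1 FPKM in at least 2 libraries were tested across all genes (15001), and the fit was tested on simulated data. Reads of the second table were recovered from FPKM and exon length within 0.02 reads, and rounded for limma-voom where, as for ATRX, they were not whole. Same-labelled libraries deviated together from their group means (r = 0.93, 0.80 and 0.60), a pattern that the 2 tables alone produce, and within the second table r was -0.17. Alternatives were a pseudocount of 0.1, other filters, a replicate block, other scalings, the second table alone, limma-voom and libraries left out.

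The genes named are the 10 listed, ZFP36L1, TERC, genes whose exons overlap them, the 2 most abundant tested genes of each pathway list with any that passed, and the 3 genes most like the one with the largest absolute t. Some list genes are not reported here by name. The genes and lists were chosen with earlier results of these data known. Tables and intervals were made in Python 3.11.15 (pandas 2.3.3, scipy 1.17.1).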

Additional observations from a re-analysis of the deposited data

How the results depend on the processing

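In each of the 19 alternatives, 0 of the tested genes of the group passed the threshold. TINF2 stayed higher in G3C2 in all 19, with log2 fold changes from 0.73 without replicate c to 2.81 with limma-voom and adjusted p from 0.0747 to 1, and 0.271 with the replicate block. ATRX (-0.43 to -0.05), DAXX (-0.65 to -0.10), TERF1 and TERF2IP kept their direction in all 19. Directions turned only where a library or pair was left out. Without WT replicate c, ACD was -0.11, TERF2 -0.01 and POT1 -0.0001. Without G3C2 replicate c, ACD was -0.06 and POT1 -0.04. Over all leave-outs ACD lay between -0.24 and 0.39, TERF2 between -0.03 and 0.17 and POT1 between -0.06 and 0.08. Over all tested genes, 7 calls became 0 without a filter, if the term for the table was dropped, in the second table on its own (also with the replicate block), after quantile normalization and by limma-voom. A mean FPKM of 5 or more gave 3, the replicate block 1 and equal medians 11. Leaving out a library or pair gave 0 to 905, the highest being 905 without pair c, 211 without pair b and 17 without G3C2 replicate c. The cause was not tested. Near 0 in 1 table were 0 genes of the group, or 1 with a limit of 0.5 FPKM. Rescaling within a library cannot change the order of levels. RTEL1, below the filter, lay between 0.05 and 1.0 with no call in 15 alternatives. Few reads limit DAXX, TINF2 and RTEL1.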

Other observations

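Of the 115 tested pathway partners, 5 had an unadjusted p under 0.05, beside 13.6% of all tested genes. They lie outside the naming rule and were singled out after their values were seen. SP100, a scaffold protein of PML bodies, had 28.5, 3.28 and 3.44 FPKM in the WT libraries (1, b, c) and 17.1, 1.77 and 1.62 in G3C2. Its log2 differences of -0.71, -0.63 and -0.76 were alike in the 3 pairs, and it was lower in 3 of 3, with a fold change of -0.70 (SE 0.13, limma adjusted p = 0.135). CTC1, the large subunit of the CST complex, had 27.3, 4.11 and 5.4 FPKM in WT and 14.1, 3.2 and 2.89 in G3C2, lower in 3 of 3 pairs (-0.64, SE 0.17, limma adjusted p = 0.21). SMC5, a subunit of the SMC5/6 complex, was lower in 3 of 3 pairs (-0.34, SE 0.13, limma adjusted p = 0.338). The primase subunit PRIM1 was higher in 3 of 3, with log2 differences of 0.69, 0.02 and 1.96 and a fold change of 0.89 (SE 0.35, limma adjusted p = 0.351). TIMELESS, a replication fork protein, was also higher in 3 of 3, with 0.42, 0.09 and 0.98 and a fold change of 0.50 (SE 0.20, limma adjusted p = 0.357). None of the 5 passed over all tested genes.

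As with DAXX, 4 of the 115 tested partner genes (3.48%, beside 3.69% of all tested genes) were under 0.5 FPKM in every library of the second table and at least 1 in both of the first. Among them were PPP1R10, a phosphatase regulator, EHMT2, an H3K9 methyltransferase, and SMN1. EHMT2 had 37.3 and 38.4 FPKM in the first table and was listed at 0 in the second. PINX1, an inhibitor of telomerase, had 11.9 and 8.69 FPKM in the first table. Its second-table values ran from 0.0269 to 0.506, just outside that definition.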
